A study of Mus musculus with 9 samples.

Results

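Kinesins and myosins are the motor proteins of the cytoskeleton, and their genes were taken here as the protein-coding genes of GENCODE M21 whose names begin with Kif, Myo or Myh followed by a digit. The rule found 78 of 21951 protein-coding genes: 39 named Kif, 25 named Myo (unconventional myosins) and 14 named Myh (conventional myosins). One of the Kif names, Kif1bp, belongs to a kinesin-binding protein and not to a motor, and it was kept because its name meets the rule. The 78 genes held 92 same-strand peaks of SAFB, a nuclear RNA-binding protein, among 18929 such peaks in protein-coding genes and 30998 peaks in the whole list. A peak was given to a gene when its midpoint lay within the gene on the gene's strand.

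The series recovered RNA by immunoprecipitation from male mouse embryonic stem cells (strain label CAST/B6 Male Rosa26-RMCE), all of them given doxycycline for 3 days, and asked which RNAs SAFB1 associates with. The groups were wild-type cells with a SAFB1 antibody (3 libraries: the parental cells, clone 20 and clone 44), wild-type cells with IgG (2), Safb1 and Safb2 double-knockout clones with the SAFB1 antibody (2), and clone 13 of the double knockout with a FLAG antibody, carrying either an eGFP plasmid (1) or a full-length SAFB1 plasmid (1). For the SAFB1 plasmid library the title (double knockout) and the genotype label (wild type) disagree, and it was grouped by title. The file analysed is 1 peak list for the whole series, with positions and strands and no value for any library. No difference between antibodies or genotypes could therefore be measured, depth is unknown, and no value below has a replicate error. Intervals are 95% Wilson intervals, which cover counting error only and treat genes or peaks as independent.

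Kinesins walk along microtubules and myosins along actin filaments, each with a motor domain that hydrolyses ATP and a tail that binds cargo or a partner. Many of these tails are long coiled coils, in which heptad repeats of amino acids pair the chains, and the charged residues of such repeats (glutamate, lysine and arginine) are often spelled by codons made of A and G alone. SAFB proteins are known to favour purine-rich RNA. In dividing stem cells the mitotic kinesins build and move the spindle, while several myosins serve specialised cells such as muscle fibres and inner-ear hair cells.

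Of the 78 motor genes, 39 held at least 1 peak (50.0%, interval 39.2 to 60.8), against 26.2% of all protein-coding genes. Motor genes are long, with a median of 60.02 kb against 17.4 kb, and longer genes hold peaks more often. Summing over the members the share found in protein-coding genes of the same length, in 20 bins, gave 35.8 genes with a peak, so the number with a peak was near what length alone gives. Peaks themselves were fewer than the bin means give, 92 against a sum of 162 from the mean of each bin. That mean is raised by a few genes with very many peaks. Against the median of the 100 protein-coding genes nearest in length, 27 motor genes had more peaks, 29 as many and 22 fewer. Those medians summed to 72.5. A single peak was found in 20 motor genes, at least 2 in 19 (24.4%, against 13.8% of all protein-coding genes) and the highest number was 9. The share with at least 2 peaks was not set against gene length.

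**Figure D1:**
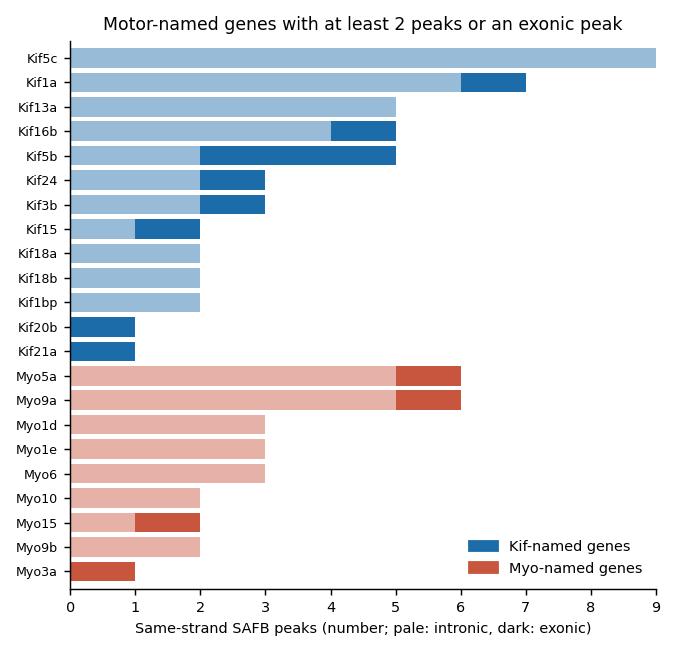
Number of same-strand SAFB peaks (x axis) in each motor-named gene with at least 2 peaks or an exonic peak (y axis), with intronic peaks pale, exonic peaks dark, and colour for the name family. Kif5c leads with 9 intronic peaks, and Kif5b has the most exonic peaks, 3 of its 5.

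The Kif and Myo or Myh names differed in how they compared with genes of their length. Of the 39 Kif genes, 24 held a peak (61.5%, interval 45.9 to 75.1), where their lengths gave 16.6. Of the 39 myosin genes, 15 held one (38.5%, 24.9 to 54.1), where their lengths gave 19.2. The Kif genes carried 58 peaks, close to the 61.5 from the means of their length bins, and the myosin genes 34 against 100.2. Medians of the 100 genes nearest in length, less moved by a few genes with many peaks, summed to 29.0 and 43.5. By these medians 19 Kif genes had more peaks, 13 as many and 7 fewer. Of the myosin genes 8 had more, 16 as many and 15 fewer. Density was 18.9 peaks per Mb of gene in the Kif family and 7.39 in the myosins, beside 18.3 over all protein-coding genes. The ratio of the family densities was 2.55. The intervals of the shares with a peak overlap between the families, and no test of the difference was made, since genes are not replicates.

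Peak density was also compared within length classes. Above 300 kb, 2 of 5 motor genes held a peak, with 1 peak each in Myo5b and Myo3a, for 0.999 peaks per Mb against 16.1 in all protein-coding genes of that size, of which 68.6% held a peak. Between 100 and 300 kb, 16 of 19 motor genes held one (84.2%, interval 62.4 to 94.5; 68.1% of all genes of that size), but their density was 14.7 per Mb against 22.9. From 30 to 100 kb, 18 of 36 held one (50.0%, against 42.4%) at 18.5 per Mb against 16.9. From 10 to 30 kb, 3 of 15 did (20.0%, against 21.3%), namely Kif7, Kif18b and Kif22, at 12.4 per Mb against 17.1. None of the 3 motor genes below 10 kb did, where 6.05% of all genes do at 14.6 per Mb.

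**Figure D2:**
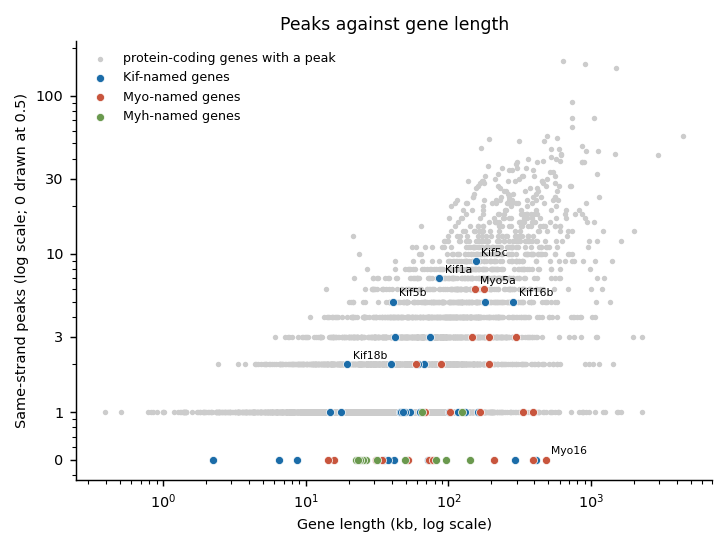
Same-strand peaks per gene (y axis, log scale, 0 drawn at 0.5) against gene length in kb (x axis, log scale), for protein-coding genes with a peak in grey and all 78 motor-named genes in colour. Kif5b, Kif1a and Kif18b lie high for their length, while Myo16 has no peak at 481 kb.

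Among the kinesins that carry cargo, kinesin-1 stood out by peaks for its length. Its 3 heavy chains, Kif5a, Kif5b and Kif5c, move vesicles, mitochondria and RNA granules toward microtubule plus ends, and held 14 peaks at 59.8 per Mb. Kif5c (chromosome 2, 49619298 to 49774778, mm10, plus strand) held 9 peaks, the most of any motor gene, and 88 of the 100 genes nearest in length had fewer. Of these 9, the peak over exon 3 also lay within Gm13525, another annotated gene on the same strand. Kif5b (chromosome 18, 6201002 to 6242174, minus strand), the form made in most tissues, held 5 peaks within 41.2 kb, or 121 per Mb, the highest density of any motor gene. Of the 100 genes nearest in length 99 had fewer peaks and 1 as many. Kif5a, a form best known from neurons, held none in 37.7 kb, where 29.0% of the 100 nearest genes hold one. Expression of the 3 genes was not measured, and its relation to their peak numbers was not tested.

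In kinesin-2, the motors of intraflagellar transport, Kif3b held 3 peaks in 42.0 kb and its partner subunit Kif3a none in 34.6 kb. Kif3c and Kif17 also held none. Kinesin-3 had peaks in 7 of 8 genes, 21 in all. Kif1a (chromosome 1, 93015464 to 93101951, minus strand), which carries synaptic vesicle precursors, held 7 peaks in 86.5 kb, and 95 of the 100 genes nearest in length had fewer. Kif13a and Kif16b, which move endosomes, held 5 each, but over 181 and 284 kb, where 36 and 42 of the 100 nearest genes had more. Kif1b, Kif13b, Kif14 and Kif28 held 1 intronic peak each and Kif1c none. In kinesin-4, Kif21a held 1 exonic peak, Kif4, Kif7 and Kif21b 1 intronic peak each and Kif27 none.

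Mitotic kinesins held 1 or 2 peaks each where they held any. Kif18a and Kif18b, which control microtubule plus ends at the spindle, held 2 each. The Kif18b peaks lay in 19.6 kb (102 per Mb), and none of the 100 genes nearest in length had more. Kif15, which acts in spindle assembly, held 2. Kif20b, a kinesin of cytokinesis, held 1 exonic peak, whereas Kif20a and Kif23, of the same subfamily, held none. Kif11 (the motor that pushes spindle poles apart), Kif22 and the microtubule depolymerase Kif2a held 1 intronic peak each, and Kif2b and Kif2c none. Kif24, a centriolar depolymerase that restrains cilium formation, held 3 peaks, and 91 of the 100 nearest genes had fewer. Kif9 held 1, and its relative Kif6, among the longest members without a peak (295 kb), none. Kif12, Kif19a, Kif26a and Kif26b (410 kb) held none. The kinesin-binding protein gene Kif1bp held 2 intronic peaks.

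Of the 34 myosin peaks, 32 lay in unconventional myosins. By density class IX led the myosin classes with 30.1 peaks per Mb, followed by classes XV (21.5) and VI (20.5). Classes V (12.6) and I (8.35) lay closer to the 7.39 of all myosins. Class IX myosins, which carry a GTPase-activating domain in the tail, held 8 peaks, 6 in Myo9a (chromosome 9, 59750896 to 59928866, plus strand) and 2 in Myo9b. Myo5a (chromosome 9, 75071015 to 75223688, plus strand), the carrier of melanosomes and vesicles, held 6 in 153 kb, and 82 of the 100 nearest genes had fewer. Its paralogs differed, with 1 peak in Myo5b (331 kb) and none in Myo5c. Myo6, which walks toward the minus ends of actin filaments, held 3. Among the membrane-bound class I myosins, Myo1d and Myo1e held 3 each, and Myo1a, Myo1c, Myo1f, Myo1g and Myo1h none. Myo10, a motor of filopodia, held 2 in 191 kb, where 50 of the 100 nearest genes had more. Myo15 held 2 and Myo3a 1, both genes of hair-cell stereocilia. Myo7a and Myo18a held 1 intronic peak each. Myo3b (390 kb), Myo16 (481 kb), Myo18b (207 kb), Myo7b, Myo15b and Myo19 held none.

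Conventional myosins, the filament-forming motors of muscle and of the cell cortex, held 2 peaks in 14 genes where length gave 5.53 genes with a peak. None of the 10 sarcomeric genes (Myh1, Myh2, Myh3, Myh4, Myh6, Myh7, Myh7b, Myh8, Myh13 and Myh15) held one. A count of 0 of 10 has an upper Wilson limit of 27.8%, and their lengths gave 31.7%. These genes are not independent loci, however. Myh1, Myh2, Myh3, Myh4, Myh8 and Myh13 lie together on the plus strand of chromosome 11, and Myh6 and Myh7 side by side on chromosome 14. The interval treats them as independent and is therefore too narrow, so the count cannot be called below what length gives. Of the non-muscle and smooth-muscle genes, Myh10 and Myh14 held 1 intronic peak each and Myh9 and Myh11 none. Expression was not measured in this list, so a gene that is silent in stem cells and an expressed gene without SAFB peaks cannot be told apart.

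Exons held 14 of the 92 motor peaks (15.2%, interval 9.29 to 23.9), against 14.6% of the peaks of all protein-coding genes. Exons make up 9.91% of the motor genes and 9.38% of all protein-coding genes, each gene weighted by its peaks. Both shares were above these values, but the motor interval contains 9.91%. Without Kif5b, which holds 3 of the 14, the motor share was 12.6%. By name family the exonic share was 17.2% in Kif genes (10 of 58, interval 9.64 to 28.9) and 11.8% in myosins (4 of 34, 4.67 to 26.6). The exonic share of motor genes was thus at the background. At least 1 exonic peak was found in 12 motor genes (15.4%), against 9.72% of protein-coding genes, a comparison that does not allow for the greater length of motor genes.

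By kind of exon, exonic motor peaks lay mostly in coding sequence. Of the 14 exonic motor peaks, 13 had their midpoint in coding sequence, the other lying in the 3' untranslated region of Myo9a in its last exon. Over all exonic peaks of protein-coding genes, 53.6% were in coding sequence. In transcripts of at least 5 exons, the midpoint fell in an internal exon for 12 of 13 motor peaks, against 52.1% in general. Motor genes have longer coding sequences, with a median of 4171.5 bases against 1173 in all protein-coding genes. Neither share was set against the length of coding or internal exons, so peak placement and gene structure cannot be told apart here. Exonic motor peaks fell into 8 narrow ones of 126 to 228 bases and 6 wide ones of 586 to 2137. Their median width was 227.5 bases against 771 in general, and 586 without Kif5b, which holds 3 of the narrow peaks. Only 12 genes stand behind these motor values, and the 3 peaks of Kif5b lie in neighbouring exons of 1 gene.

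Several of these narrow peaks had nearly the outline of 1 exon. In Kif5b, peaks of 227, 153 and 228 bases sat over exons 14, 15 and 16, of 207, 144 and 189 bases, and 2 further peaks with intronic midpoints covered exon 12 and exons 18 and 19. Kif1a had a peak of 128 bases over exon 7 of 112 bases. The peaks of Kif21a (200 bases over exon 14 of 124), Kif15 (219 over exon 25 of 105) and Myo5a (189 over exon 23 of 94) also held 1 whole exon with some flanking intron. Other exonic peaks lay wholly inside 1 exon, as in exon 2 of Kif24 (586 bases of peak), exon 29 of Myo3a (126) and the last exon of Myo9a (1093). Those at exon 2 of Kif3b (1452), exon 19 of Kif20b (1266) and exon 2 of Myo15 (983) lay mostly in a large exon and reached a little beyond it. The peak of Kif16b (2137 bases) lay in an alternative coding exon of a short transcript, not in the longest one.

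Exon sequences under the narrow peaks are shown to let the purine runs be seen. They were read from GENCODE M21 transcripts, 5' to 3', and give the part of the peak within the exon. Capitals mark runs of at least 6 purines (A or G).
Kif21a exon 14, chr15:90971665-90971788, minus strand: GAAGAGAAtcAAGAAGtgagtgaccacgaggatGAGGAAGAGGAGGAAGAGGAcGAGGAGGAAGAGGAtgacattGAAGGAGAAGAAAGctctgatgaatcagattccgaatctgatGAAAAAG
Myo5a exon 23, chr9:75176518-75176611, plus strand: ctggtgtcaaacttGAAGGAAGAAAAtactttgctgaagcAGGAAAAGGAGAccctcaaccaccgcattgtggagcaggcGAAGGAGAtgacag
Myo3a exon 29, chr2:22577654-22577779, plus strand: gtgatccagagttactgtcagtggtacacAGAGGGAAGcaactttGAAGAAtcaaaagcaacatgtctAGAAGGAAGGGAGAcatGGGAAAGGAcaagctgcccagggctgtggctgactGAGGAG
Kif15 exon 25, chr9:123003570-123003674, plus strand: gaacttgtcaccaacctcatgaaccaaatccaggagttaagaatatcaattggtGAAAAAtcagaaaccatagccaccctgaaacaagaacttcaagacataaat
Kif1a exon 7, chr1:93074956-93075067, minus strand: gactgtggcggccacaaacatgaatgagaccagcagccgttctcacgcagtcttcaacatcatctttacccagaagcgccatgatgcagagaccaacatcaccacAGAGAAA
Exon 14 of Kif21a was 77.4% purine, the highest of the 37 exons of its transcript, and held a run of 20 purines. The exon of Myo5a (64.9%) ranked 5 of 41 and that of Myo3a 3 of 34 (62.0% over the whole exon). The exons of Kif15 (58.1%, rank 17 of 35) and Kif1a (53.6%, rank 19 of 49) stood lower, with longest runs of 6 and 7 purines.

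Among the 6 wide exonic peaks, 3 held a run of 16 or more purines, while the longest runs under Kif16b, Kif24 and Myo9a were 11, 10 and 9. The 60 bases centred on the longest run under the peaks of Kif3b, Myo15 and Kif20b are given below, with the same use of capitals. They were chosen by that run, so their purine content is not a result.
Kif3b exon 2, chr2:153317443-153317502, plus strand: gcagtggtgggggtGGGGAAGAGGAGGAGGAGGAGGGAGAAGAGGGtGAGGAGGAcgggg
Myo15 exon 2, chr11:60476422-60476481, plus strand: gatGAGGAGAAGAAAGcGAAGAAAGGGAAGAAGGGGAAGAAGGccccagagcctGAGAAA
Kif20b exon 19, chr19:34949877-34949936, plus strand: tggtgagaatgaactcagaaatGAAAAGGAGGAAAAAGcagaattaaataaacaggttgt
The run in Kif3b was 32 bases long and lies after switch II, a motif of the motor domain, that in Myo15 26 bases, before the motor domain, and that in Kif20b 16.

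Bases under exonic motor peaks were richer in purines than the rest of the same transcripts. The median was 60.1% under the 14 peaks and 54.6% outside them, and the median difference was 5.27 percentage points (SD over peaks 7.33). The peak was the richer part in 11 of 14 cases. The exceptions were Kif16b (48.5% against 55.8%), Kif24 (49.5% against 50.1%) and Myo9a (49.6% against 52.6%). Over all 2871 exonic peaks of protein-coding genes with sequence outside the peak, the median difference was 2.41 points and 68.4% were richer than the rest. The difference between motor and other peaks was not tested. Within coding sequence alone the median difference was 3.41 points for 13 motor peaks and 1.21 in general.

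**Figure D3:**
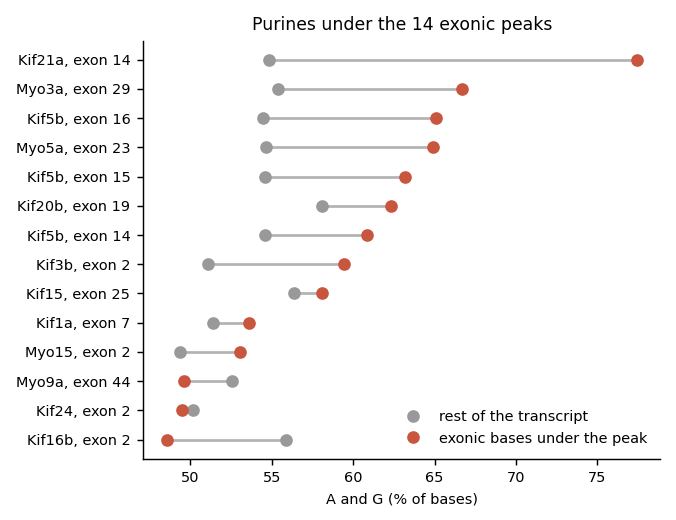
Share of A and G in percent (x axis) in the exonic bases under each of the 14 exonic peaks (red) and in the rest of the same transcript (grey), by gene and exon (y axis; the exon of Kif16b is numbered in a short transcript). For Kif16b the rest is only a small part of that transcript. Kif21a has the widest gap, 77.4% against 54.8%, and in 3 of 14 peaks the rest of the transcript is richer.

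Codons gave a mixed picture. In the 12 coding peaks with a full reading frame, codons made of purines alone (for lysine, arginine, glutamate or glycine) had a median share of 27.8% under the peak and 24.4% in the rest of the coding sequence, with more under the peak in 7 of 12 (58.3%). Over all 1438 such peaks these medians were 23.3% and 21.4%, with more under the peak in 62.0%, so the motor count is near the background. Kif21a had 53.7% against 22.9%, Myo3a 33.3% against 22.9% and Myo5a 32.3% against 22.6%. The Kif5b peaks had 29.0 and 31.7% over exons 14 and 16, against 26.0 and 25.8% outside them, but 25.0% against 26.2% over exon 15. In Kif1a the share was lower under the peak, 13.5% against 18.6%. The motor domain was located by its P-loop, which binds ATP, and its switch II motif, both found in the translated transcripts. The midpoint lay after switch II in 8 of the 12 peaks, between the motifs in 2 (Kif1a and Kif3b) and before the P-loop in 2 (Kif24 and Myo15). The stretch after switch II makes up 73.2% of codons in these transcripts, so 66.7% of midpoints there is near its length. In Kif5b the midpoints fell at codons 490, 552 and 604 of 963, with switch II at codon 231.

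Coding sequences differed in purine content between the families. The Myh genes, whose tails are long coiled coils, had the most purine-rich coding sequences, with a median of 59.5% (57.8 to 60.3). They held only 2 peaks in all, both intronic, so they say little on where peaks fall. Kif genes had a median of 55.2% and Myo genes 54.1%, beside 51.7% over all protein-coding genes. Motor genes with an exonic peak had a median of 55.9%, those with intronic peaks only 55.1% and those without a peak 55.4%. These are medians over 12, 27 and 39 genes.

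**Figure D4:**
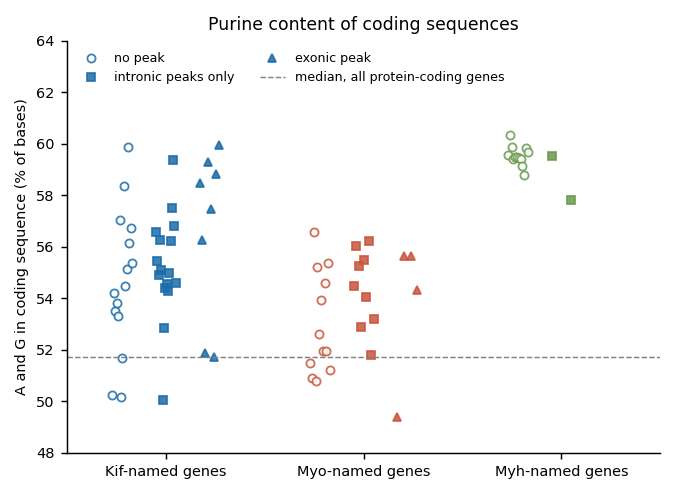
Share of A and G in percent of the coding sequence (y axis) for each motor-named gene by name family (x axis), with open circles for genes without a peak, squares for intronic peaks only and triangles for an exonic peak, spread sideways for legibility. All Myh genes lie at 57.8% or above, and none of them is a triangle; the dashed line is the median of all protein-coding genes, 51.7%.

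The kinesin-1 paralogs can be compared exon by exon. Exons 14, 15 and 16 of Kif5b, each with a peak, were 60.9, 63.2 and 65.1% purine. The same-numbered exons of Kif5c, of 207, 147 and 189 bases, were 62.8, 59.9 and 58.2% and carried no peak, and those of Kif5a 62.3, 57.8 and 56.6%, also without one. Exons 15 and 16 were thus richest in Kif5b, and exon 14 was poorest there. Although every Kif5c peak had its midpoint in an intron, peaks covered its exons 3, 12, 18 and 19, and exons 12, 18 and 19 of Kif5b were covered as well. These 3 exons of Kif5c are shown because both paralogs had them under a peak, again with capitals for runs of at least 6 purines.
Kif5c exon 12, chr2:49722977-49723149, plus strand: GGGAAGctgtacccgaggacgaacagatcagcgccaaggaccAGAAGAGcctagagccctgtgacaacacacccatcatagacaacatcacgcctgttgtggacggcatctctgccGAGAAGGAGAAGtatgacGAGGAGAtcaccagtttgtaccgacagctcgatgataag
Kif5c exon 18, chr2:49741333-49741409, plus strand: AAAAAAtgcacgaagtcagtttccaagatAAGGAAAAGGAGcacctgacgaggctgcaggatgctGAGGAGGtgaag
Kif5c exon 19, chr2:49741939-49742048, plus strand: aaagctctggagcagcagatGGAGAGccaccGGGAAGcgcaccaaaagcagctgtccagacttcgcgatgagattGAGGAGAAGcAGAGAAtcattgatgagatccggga
They were 59.0, 70.1 and 65.5% purine, and exons 12, 18 and 19 of Kif5b 60.8, 69.4 and 63.6%. Exon 18 was the richest of the 3 in both genes.

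Introns held the other 78 motor peaks, and these lay closer to exons than intronic peaks in general. The median distance from midpoint to nearest exon was 2.19 kb, against 5.50 kb. Within 1 kb of an exon were 24 of the 78 (30.8%, interval 21.6 to 41.7), against 17.2% in general, and 16 (20.5%, 13.0 to 30.8) reached into an exon, against 7.94%. Motor genes have many exons and shorter introns, however. If intronic midpoints were spread evenly over the introns of the same genes, 43.6% would lie within 1 kb and 23.3% would reach an exon with their own widths. Against that length the observed shares had ratios of 0.707 and 0.882, beside 0.775 and 0.727 over all protein-coding genes. The families differed, with 0.840 and 1.03 in Kif genes and 0.478 and 0.620 in myosins. The myosin ratios rest on 6 and 4 of 30 intronic peaks. Counting every peak with at least 1 exonic base, 32.6% of motor peaks touched an exon and 21.4% in general.

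Few motor peaks lay near either end of a gene. Within the first 10% of their gene lay 3 of 92 peaks (3.26%, interval 1.12 to 9.15), all in myosins (Myo1e, Myo5a and Myo5b), against 8.38% in general. The last 10% also held 3 (3.26%; Kif16b, Myh14 and Myo9a), against 10.9%. The first interval reaches past the general share and the second, with the same bounds, does not. In kb, motor peaks lay nearer the gene start, at a median of 36.9 against 61.4, a distance that depends on gene length. In percent of gene length the medians were 48.9 and 52.8. The peak nearest to a gene start was in Kif7, at 2.26 kb. First introns held 29.7% of the intronic peaks that lay in an intron of the longest coding transcript, with 26.1% of its intron length, and the longest intron held 36.5% with 31.3%. In general these were 29.4% with 30.1% and 47.9% with 44.5%. Motor peaks had a median width of 678 bases (74 to 3301), beside 666 in general. The widest lay in the first intron of Kif24.

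**Figure D5:**
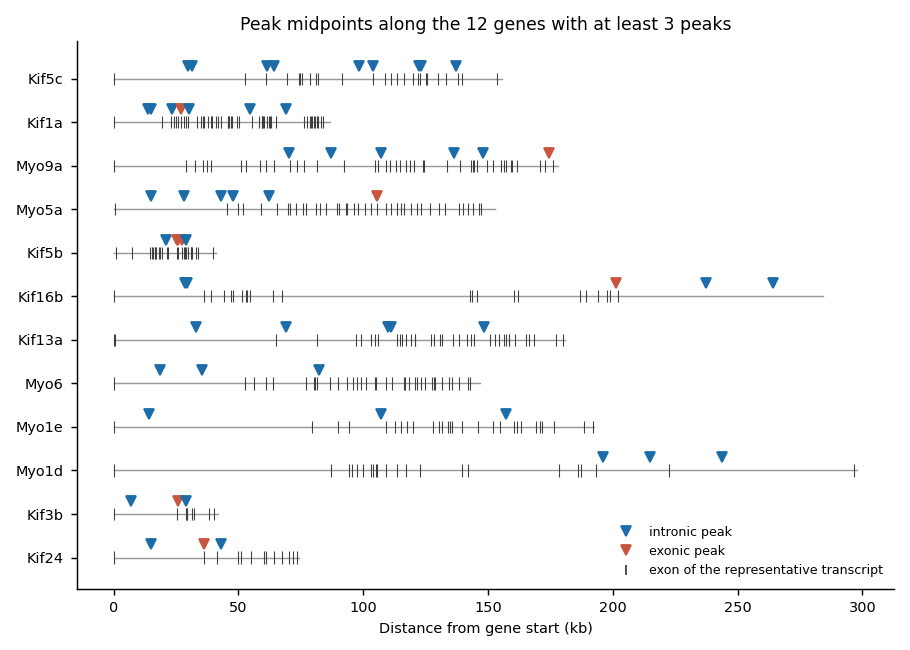
Midpoints of peaks (triangles, blue intronic and red exonic) along the 12 motor genes with at least 3 peaks (y axis), by distance from the gene start in kb (x axis), with exons of the longest coding transcript as ticks. The peaks of Kif5b crowd within 8.09 kb, those of Kif5c span 108 kb, and those of Kif16b 235 kb.

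Clustering also differed between these genes. Peak names end in a number that rises along each chromosome and strand. If each number stands for 1 call before the authors' selection, the 5 peaks of Kif5b were kept out of 7 calls (71.4%). In the other 11 genes with at least 3 peaks the share was lower, from 4.35% in Myo1e and 5.38% in Kif16b to 33.3% in Kif3b, with 20.0% in Kif5c and 18.9% in Kif1a. The median of the 12 was 15.6%, and over the 1903 protein-coding genes with at least 3 peaks it was 23.5% (quartiles 14.3 and 41.8). No source states what the numbers count.

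Antisense peaks, those on the opposite strand within a motor gene, numbered 21, or 18.6% of all peaks in these genes, against 19.3% in protein-coding genes. They fell in 12 of the 78 genes (15.4%, against 12.5% of protein-coding genes, without allowing for length). Myh10 held 4 of them and 1 sense peak, and Kif15 and Kif24 held 3 each. Of the 21, 3 lay in an annotated gene of their own strand, including a peak of 2455 bases at the start of Kif5b in AC113003.1.

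Other parts of the transport machinery were set beside the motors from lists chosen with earlier results known, so their counts are no independent support. Dynein and dynactin genes, the minus-end motor complex of microtubules, had peaks in 4 of 19 genes (length gave 5.56) and no exonic peak among 16, of which Dync2h1, the heavy chain of ciliary dynein, held 13. Kinesin light chains and related genes had 1 of 8 (length gave 2.48), Kifap3 with 2 intronic peaks. Of 18 tubulin and actin genes 1 had a peak, Tubb3, and length gave 1.38. Cargo adaptors had peaks in 11 of 18 genes (length gave 7.72) and 25 of their 46 peaks were exonic (54.3%, interval 40.2 to 67.8), where exon length gave 17.0%. The exonic peaks came from Bicd1 (7 of 14 peaks), Ktn1 (7 of 8), Hook1 (5 of 6), Hook3 (5 of 7) and Gripap1 (1 of 3), mostly rod-like coiled-coil proteins. Myosin light chains and regulators had peaks in 8 of 25 genes (length gave 7.60). Of their 39 peaks 15 were exonic (38.5%, 24.9 to 54.1), where exon length gave 11.8%. These came from Rock1 (6 of 10), Rock2 (3 of 11), Ppp1r12a (3 of 6), Ppp1r12b (2 of 8) and Myl9 (1 of 1). The motor genes, at 15.2% (9.29 to 23.9), lay below both lists, a difference that was not tested. Median purine differences between peak and rest of transcript were 3.94 points in the adaptors and 4.97 in the light chains and regulators, near the 5.27 of the motors.

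The list holds no expression values, so the cell type could be checked only by where peaks lie. Of 12 stem cell marker genes 6 had a peak (Esrrb, Tet2, Klf5, Tet1, Tfcp2l1 and Zfp42), where length gave 2.93, while Pou5f1, Sox2, Nanog, Klf4, Dppa5a and Utf1 had none. Of 9 striated muscle genes, Ryr1 and Ttn had 2 peaks each, and length gave 2.68 genes with a peak. None of 4 smooth muscle genes and none of 4 hair cell and photoreceptor genes had one, where length gave 0.650 and 0.788, so these counts are near what length gives. Whether the cells express the muscle and hair-cell motors was not tested.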

How the data were processed

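RNA was recovered by immunoprecipitation (RIP-seq) in 9 libraries of 5 groups, and the authors deposited 1 list of 30998 stranded peaks for the whole series. Its score column, as deposited, is 500 in every peak and was not used. The submitters' processing notes name mm10, STAR, Subread and featureCounts. How peaks were called and whether libraries were pooled is not given in the sources used here. Starts were read as counted from 0 and are printed from 1.

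Genes, exons and transcript sequences came from GENCODE M21 (GRCm38, the assembly of mm10), and peaks were placed by midpoint, with exons of all transcripts. The longest coding transcript numbers exons; under exonic peaks, the protein-coding transcript holding most of the peak was used. Length references are deterministic sums over 20 bins or the 100 nearest genes, with no p-value. The symbols Dynlt1 and Jip4 of the lists were not matched, and Myl12b is annotated as 2 genes. Named genes are members with at least 2 peaks or an exonic peak and the 5 longest without one; the others are named in groups, and 1 item is not reported here. The members, lists and rules were chosen with earlier results of these data known. Counting was tested on simulated peaks planted in 200 genes, and all 200 held at least the planted counts, a check that cannot detect overcounting. Python 3.11.15, pandas 2.3.3 and scipy 1.17.1 were used. Intronic sequence was not used here. No comparison between groups of libraries was made.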

Additional observations from a re-analysis of the deposited data

How the results depend on the processing

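The number of motor genes with a peak stayed at 39 with any overlap, with whole peaks inside the gene, without peaks in more than 1 protein-coding gene and with Kifc genes added. It was 29 when narrower peaks than the median were dropped (20.0% of protein-coding genes) and 38 without Kif1bp, and fell to 19 when at least 2 peaks were required, which by construction asks more. The number from length was 35.0 to 35.8 under all 3 references. The exonic share was 9.80 to 16.9% under 5 of the 6 alternatives, and 32.6% with any overlap with an exon (21.4% in general). With coding sequence only it was 14.1% against 7.84% in general, and with wide peaks 9.80% against 16.3%, so its place beside the background depends on these choices. The purine difference was 5.11 points around the midpoint, 3.68 without Kif5b, 3.41 against the rest of the coding sequence, and -0.66 for the 3 peaks wholly inside 1 exon, a reversal that rests on 3 peaks. The density ratio of Kif to myosin genes ran from 2.05 (genes up to 300 kb) to 2.67 (without Kif5c and Myo5a, the members with most peaks in each family; Myo9a ties with Myo5a). The settings without Kif1bp or the peaks of Kif5b, up to 300 kb, for unconventional myosins alone, and the median width without Kif5b were chosen after seeing the data. No paired analysis was possible because the list has no values per library, and for the same reason no library could be left out. Depth behind a peak is unknown.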
